A study of Mus musculus with 12 samples.

Results

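Immediate early genes and the feedback inhibitors of the ERK pathway were examined as a set of 40 genes in bone-marrow-derived macrophages (BMDMs), taken by their symbols from a table of 55487 gene models, of which 31963 had at least 1 read. The set comprised 4 genes of the *Fos* family (*Fos*, *Fosb*, *Fosl1*, *Fosl2*), 3 of the *Jun* family (*Jun*, *Junb*, *Jund*), 5 further bZIP factors (*Jdp2*, *Batf*, *Atf3*, *Maff*, *Mafk*), 3 EGR factors (*Egr1*, *Egr2*, *Egr3*), 3 nuclear receptors of the NR4A family (*Nr4a1*, *Nr4a2*, *Nr4a3*), *Myc*, *Mycl* and *Srf*, 4 further early response genes (*Ier2*, *Ier3*, *Ier5*, *Phlda1*), 9 MAP kinase phosphatases (*Dusp1*, *Dusp2*, *Dusp4*, *Dusp5*, *Dusp6*, *Dusp7*, *Dusp8*, *Dusp10*, *Dusp16*), 3 Sprouty genes (*Spry1*, *Spry2*, *Spry4*) and 3 Spred genes (*Spred1*, *Spred2*, *Spred3*). All 40 were found. The rule used no measured value, though the members were chosen with earlier results of these data known. RNA was sequenced from C57BL/6 wild-type (WT) BMDMs and from RasGEF1b-cKO (KO) BMDMs, which carried the *Rasgef1b*-fl/fl;CMVcre genotype, each left untreated or treated with lipopolysaccharide (LPS) from Escherichia coli at 100 ng/ml for 4 h. Each of the 4 groups held 3 libraries, made from independent cultures, so that p-values measure the spread between the cultures of a group. Untreated and LPS-treated libraries of a genotype were paired by replicate number, as described below. The main fits left this pairing out, and the paper also compared its samples unpaired. Despite its name, the deletion was not conditional on the cell type: Cre under the CMV promoter removes exons 7 and 8 in the whole animal, so the KO BMDMs grew from progenitors that already lacked them. The WT animals came from a separate breeding facility and were not described as littermates, so that genotype and colony cannot be told apart. The mice were 8 to 12 weeks old, and all 4 groups were grown in medium conditioned by L929 cells, a source of the macrophage growth factor M-CSF, which itself signals through ERK.

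Immediate early genes are transcribed within minutes of a stimulus without new protein synthesis, and most return toward their starting level soon after, because their mRNAs decay fast and the kinases that drive them are switched off again. In macrophages, LPS acts through TLR4 to activate NF-kB and the MAP kinases ERK, JNK and p38. ERK phosphorylates ternary complex factors that bind with SRF at the CArG boxes of early gene promoters, and the resulting FOS and JUN proteins pair to form the factor AP-1. The dual-specificity phosphatases (DUSPs) remove the activating phosphates from MAP kinases, and the Sprouty and Spred proteins restrain signalling from receptors through Ras to ERK. Transcription of many of them is itself switched on by ERK, which closes a feedback loop. Most of them are usually past their first peak by 4 h.

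The promoters of the members were searched for the sites through which these pathways are known to act, and those that differ most from the other promoters, or that belong to a member described below, are shown here. RefSeq promoter sequences of the build GRCm38.p6, from 250 bases before to 50 bases after each start, were on hand for 32 of the 40 members and 27025 genes in all. No promoter was matched for *Fosl1*, *Egr1*, *Egr3*, *Myc*, *Ier2*, *Phlda1*, *Dusp4* and *Spry4*. The CArG box was found in 3 of 32 members (9.38%) against 1.81% of all genes. For this and the other sites, a gene counted if any of its RefSeq starts had a match, so genes with more starts had more chances. Capitals mark matches of the CArG box in *Dusp5*, *Srf* and *Egr2*, all upstream of the start and read 5′ to 3′ in the direction of transcription. *Egr2* has a further, different match before another of its starts, which is not shown. The first of these windows lies within an annotated exon and is therefore kept short.
Dusp5 (chr19:53529058-53529087, + strand): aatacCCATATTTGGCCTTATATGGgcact
Srf (chr17:46556195-46556264, - strand): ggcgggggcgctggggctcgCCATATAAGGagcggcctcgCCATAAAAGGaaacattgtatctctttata
Egr2 (chr10:67537777-67537826, + strand): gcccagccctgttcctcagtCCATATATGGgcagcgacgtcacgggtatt
The cyclic AMP response element TGACGTCA, a site for CREB and ATF factors, was found in 3 of 32 members (9.38%) against 2.03% of all genes, and it appears 2 times in *Dusp8*.
Dusp1 (chr17:26508588-26508635, - strand): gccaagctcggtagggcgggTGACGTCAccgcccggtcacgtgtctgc
Dusp8 (chr7:142095320-142095411, - strand): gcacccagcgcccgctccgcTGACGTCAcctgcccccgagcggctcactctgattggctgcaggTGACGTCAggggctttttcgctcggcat
Maff (chr15:79347471-79347518, + strand): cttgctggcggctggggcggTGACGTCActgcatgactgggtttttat
The site GCGNGGGCG, bound by EGR proteins, was in 9 of 32 members (28.1%) against 6.27%. The members were *Fosb*, *Fosl2*, *Maff*, *Mafk*, *Nr4a1*, *Nr4a2*, *Srf*, *Dusp2* and *Dusp16*, of which *Dusp2* and *Nr4a1* are shown because LPS moved them far in opposite directions. The match in *Nr4a1* is on the other strand.
Dusp2 (chr2:127336041-127336089, + strand): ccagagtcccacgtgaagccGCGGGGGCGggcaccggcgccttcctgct
Nr4a1 (chr15:101266766-101266814, + strand): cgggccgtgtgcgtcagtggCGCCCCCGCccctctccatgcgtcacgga
An NF-kB site was found in 8 of 32 members (25%) against 9.55% of all genes: *Fos*, *Fosb*, *Fosl2*, *Jdp2*, *Maff*, *Egr2*, *Nr4a1* and *Ier3*. The site was searched as GGG, a purine, any 2 bases, 2 pyrimidines and CC. The matches of *Ier3* and *Jdp2* are shown since both genes differed between the genotypes after LPS. The match in *Ier3* is on the other strand.
Ier3 (chr17:35821601-35821650, + strand): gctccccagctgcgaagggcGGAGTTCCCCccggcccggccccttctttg
Jdp2 (chr12:85599772-85599821, + strand): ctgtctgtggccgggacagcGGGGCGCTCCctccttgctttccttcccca
The ETS core CCGGAA was present in 7 of 32 members (21.9%) against 16.7%, and the TATA box letters TATAAA, searched on the transcribed direction only, in 3 of 32 (9.38%) against 9.77%. The AP-1 site TGANTCA was in none of 32 against 8.97%. The CRE without its last base was in 6 of 32 (18.8%) against 3.60%, which includes the full matches above. All sites but TATAAA were searched on both strands, and the NF-kB matches of the *Egr2* and *Fosl2* promoters overlap one another. A match describes these letters in this window only.

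The libraries held 19316691 to 24977356 reads in genes, of which the 40 members took 0.182% to 0.193% in the untreated and 0.301% to 0.331% in the LPS-treated BMDMs. Values are normalized counts, which are reads divided by a size factor for each library. *Rasgef1b* itself, counted over all its exons, stood at 2171, 2001 and 2043 in WT and 695, 545 and 587 in KO untreated libraries, and at 12554, 11854 and 11844 in WT and 3775, 4192 and 3618 in KO LPS-treated ones, so every KO library was below every WT library of its condition. Of 12 macrophage markers, among them *Adgre1* (F4/80) and *Csf1r*, all 12 had a mean above 10 in every group, and their summed level ran from 255723 to 449585. The other marker lists summed to 267 to 1257 for neutrophils and their precursors, 217 to 1152 for B cells, 2392 to 5722 for dendritic cells, 9.56 to 56.8 for fibroblasts, and at most 14.5 for mast cells, 6.84 for erythroid cells and 5.99 for T and NK cells. In a group, 4 or 5 of 10 neutrophil, 2 of 6 B cell and 1 to 3 of 6 dendritic cell markers had a mean of at least 10, so these sums rest on few genes. The ribosomal RNA gene CT010467.1 took 5.06% of the reads in replicate 2 of the untreated KO BMDMs against 0.0398% to 0.0874% in the other 11 libraries. The direction of small LPS effects depends on the scaling. With the deposited size factors the median log2 fold change of all genes was -0.02 in WT and -0.01 in KO BMDMs. It was 0.29 and 0.27 with upper quartile scaling, and -0.75 and -0.71 with reads scaled to equal totals, an alternative chosen after seeing the data.

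**Figure D1:**
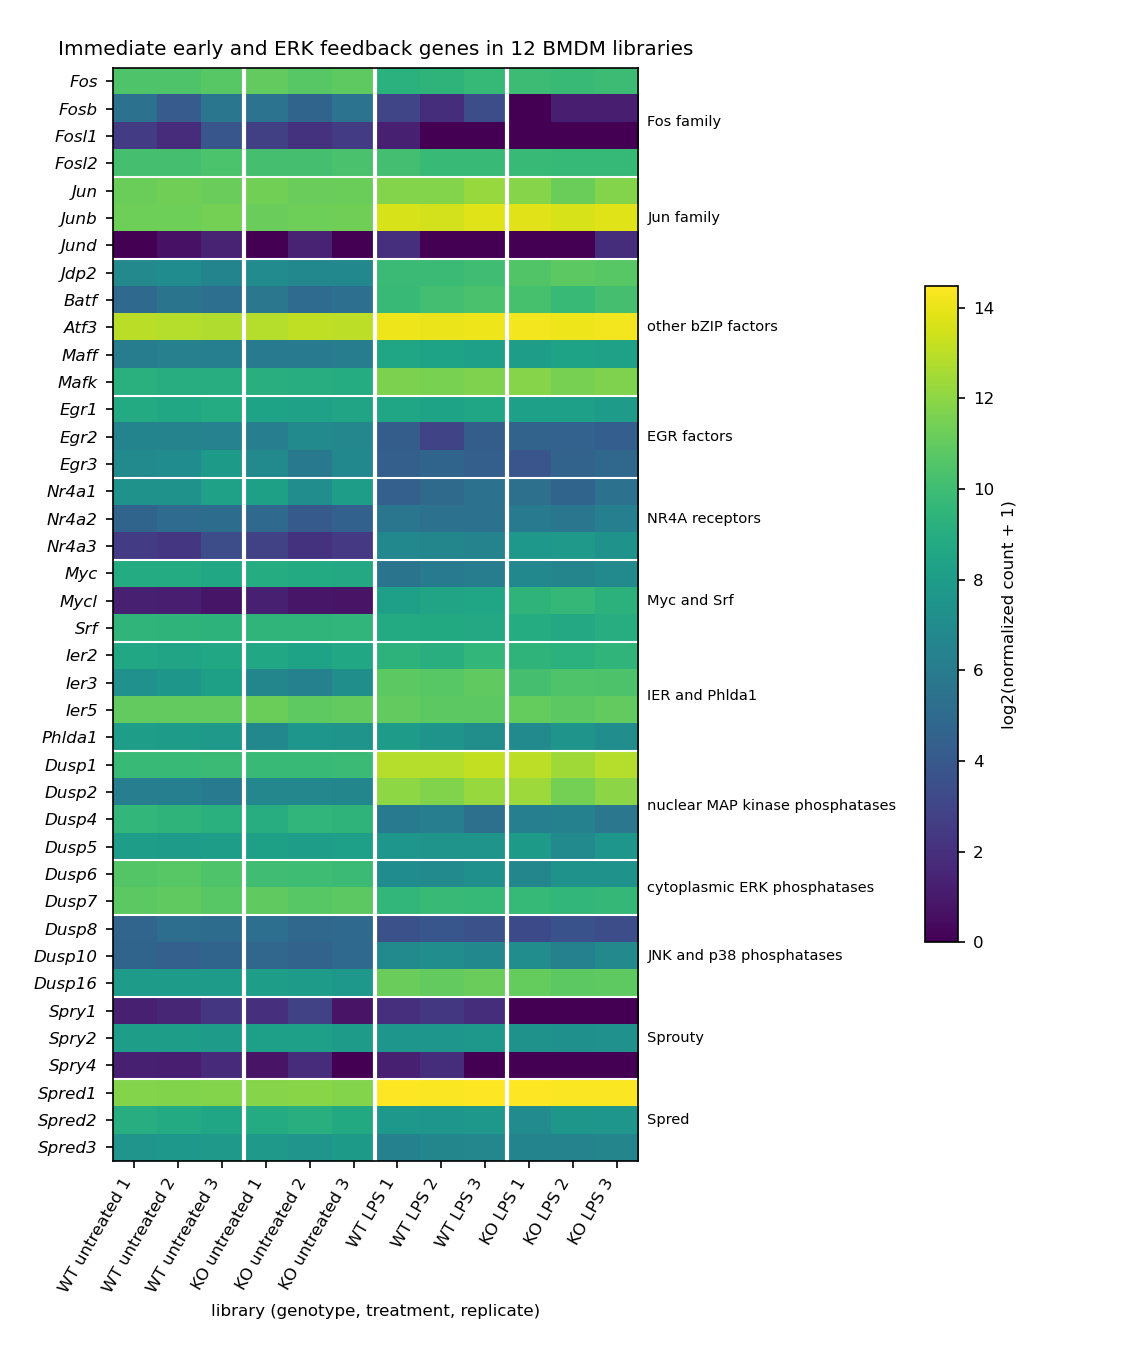
Level of each of the 40 members (rows, in order of role) in each of the 12 libraries (columns, 3 per group), as log2 of the normalized count plus 1 (colour). *Spred1*, *Atf3* and *Junb* are the brightest rows after LPS, while *Jund*, *Fosl1*, *Spry1* and *Spry4* stay dark throughout.

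The first question was which of these genes LPS had left above or below their untreated level at 4 h. Members went in both directions: in WT BMDMs 14 of 36 tested members were called higher and 12 lower, and in KO BMDMs 15 were called higher and 12 lower. The members called higher included *Mycl*, *Dusp2*, *Batf*, *Nr4a3* and *Dusp1*, and those called lower *Dusp4*, *Dusp6*, *Myc*, *Egr3* and *Nr4a1*. A call required an adjusted p under 0.05 with limma and a change of at least 2-fold. Only genes at a mean of at least 10 were tested. *Mycl* and *Nr4a3* had a mean under 10 in untreated BMDMs, as had *Fosb* after LPS and *Dusp8* after LPS in KO BMDMs. These passed the filter only through the group where they were high, so they could be called in that direction only. Over all genes tested, 17.1% were called higher and 16.9% lower in WT, and 17.3% and 16.6% in KO BMDMs. With the deposited scaling the members were thus called more often than the average gene in each direction. The members were chosen with earlier results of these data known, so this and the comparisons that follow are descriptions and not findings about the set. At an adjusted p under 0.05 alone, 34 of 36 members passed in WT and 33 of 36 in KO BMDMs, against 73.2% and 72.1% of all genes. The median absolute log2 fold change of the members was 2.30 in WT and 2.09 in KO BMDMs, against 0.61 and 0.62 over all genes. Both genotypes shared 14 members called higher and 12 called lower, and *Nr4a2* was the 1 member called in KO BMDMs alone, though its difference between the genotypes did not pass, at 0.91 (SE 0.35, adjusted p = 0.999). With upper quartile scaling 15 members were called higher and 8 lower in WT and 16 and 9 in KO BMDMs, while with equal read totals the counts were 13 and 17 in WT and 13 and 16 in KO BMDMs. The shares of all genes called under these scalings were not counted, so these member counts are not compared with the average gene. With equal read totals *Fosl2* (-1.10 in WT and -1.19 in KO), *Srf* (-1.33 and -1.28), *Dusp5* (-1.26 and -1.36) and *Spry2* (-1.12 and -1.49) were also called lower, as was *Phlda1* in WT (-1.16). With upper quartile scaling the same genes came to -0.08 and -0.22 for *Fosl2*, -0.31 in both genotypes for *Srf*, -0.24 and -0.39 for *Dusp5* and -0.10 and -0.53 for *Spry2*, and *Fosl2* in WT (adjusted p = 0.549), *Dusp5* in KO (0.126) and *Spry2* in WT (0.393) no longer passed the adjusted p. With upper quartile scaling *Ier2* (1.03 and 1.07) was also called higher. In bulk RNA, fewer cells that express a gene and less RNA of it per cell cannot be told apart.

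**Figure D2:**
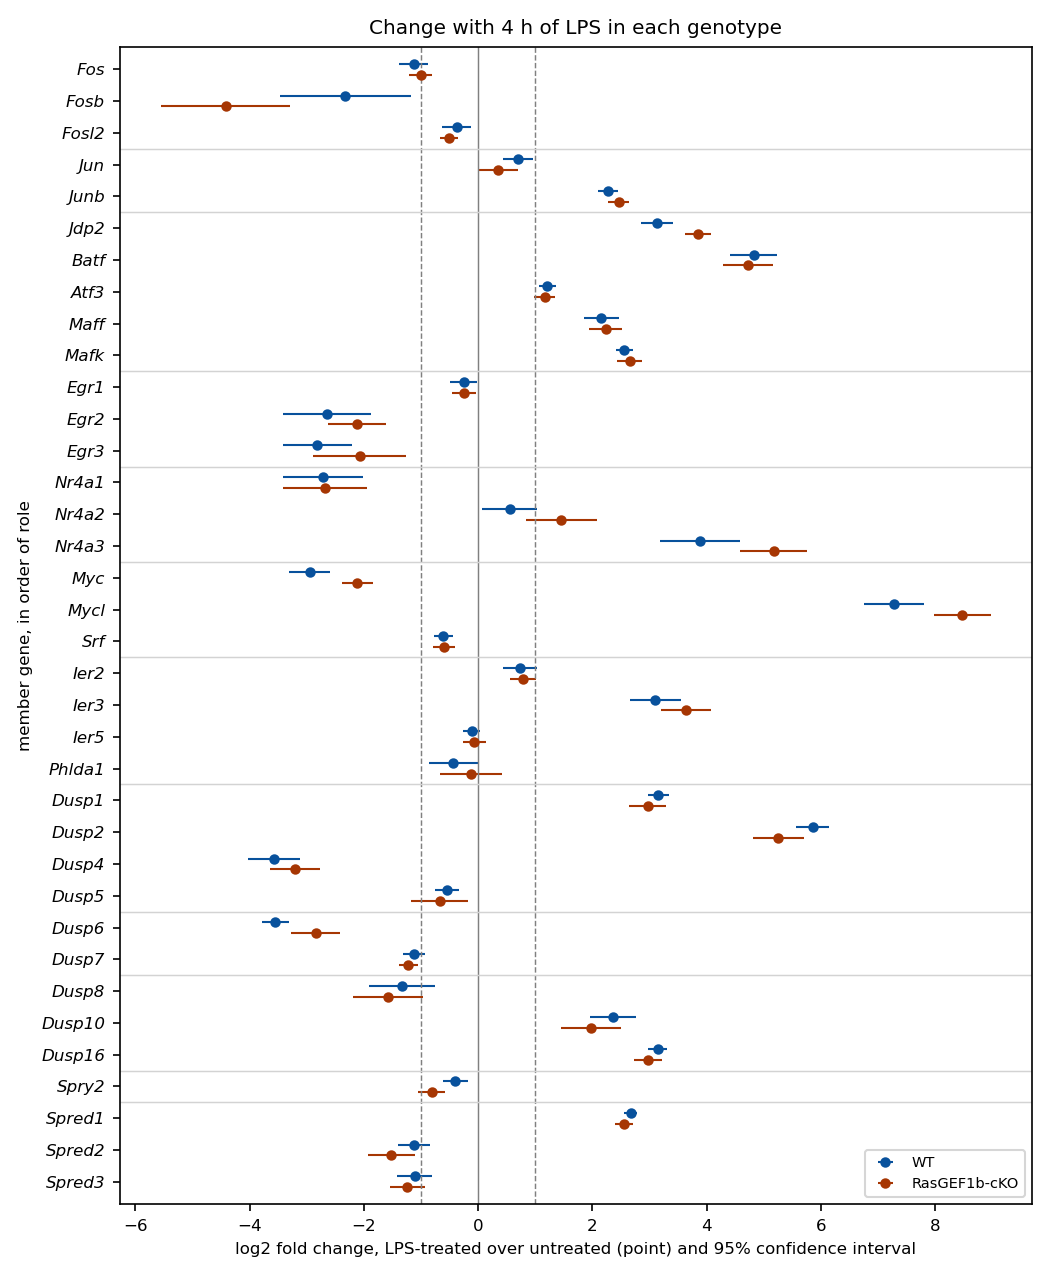
Change of 36 members with LPS in WT (blue) and RasGEF1b-cKO (brown) BMDMs, as log2 fold change (x axis) with 95% confidence interval from limma, n = 3 libraries per group; dashed lines mark a 2-fold change. *Mycl* lies farthest right, at 7.28 in WT and 8.47 in KO, and the points of the 2 genotypes have the same sign for every member.

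Of the *Fos* genes, which encode the partners of JUN in AP-1, *Fos* and *Fosb* were called lower after LPS. *Fos* stood at 1459, 1422 and 1686 in untreated and 597, 685 and 815 in LPS-treated WT libraries, and at 2065, 1676 and 1892 and 960.4, 869.5 and 977 in the KO libraries. The groups did not overlap in either genotype. The log2 fold change was -1.13 (SE 0.11, adjusted p = 1.47e-05) in WT and -1.001 (SE 0.09, adjusted p = 1.04e-05) in KO BMDMs. The fold in KO lies at the threshold, and the call was lost with upper quartile scaling (-0.72), with DESeq2 (-0.997), with a pseudocount of 5 (-0.998) and without replicate 1 (-0.93) or 3 (-0.99) of the untreated or replicate 2 (-0.95) of the LPS-treated KO BMDMs. In WT it was lost with upper quartile scaling (-0.83). *Fosb*, the nearest relative of *Fos*, had 43.6, 17.2 and 49.4 in untreated and 7.04, 2.73 and 9.74 in LPS-treated WT libraries. In KO BMDMs it went from 45.1, 23.9 and 45.1 to 0, 1.31 and 1.36. Both genotypes were called, with -2.33 (SE 0.51, adjusted p = 0.00238) and -4.42 (SE 0.49, adjusted p = 5.01e-05). The KO value rests on 155 reads in the untreated and 2 reads in the LPS-treated libraries, a level 45.3-fold lower with a 95% counting interval of 12.3 to 377, which covers counting error only. Over the alternatives its log2 fold change ran from -5.46 with DESeq2 to -2.83 with a pseudocount of 5. *Fosl2*, which encodes FRA-2, had a mean of 1239 ± 88.9 (SD, n = 3) in untreated and 961 ± 164 in LPS-treated WT BMDMs, with log2 fold changes of -0.38 (SE 0.11, adjusted p = 0.013) in WT and -0.50 (SE 0.07, adjusted p = 0.000185) in KO BMDMs. *Fosl1*, the FRA-1 gene, was not tested, with 28 reads in the 3 untreated WT libraries, 1 read after LPS, and 19 and 0 reads in the KO libraries. Its exons share 57.2% of their bases with the antisense gene *Ccdc85b*.

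Of the *Jun* genes, *Junb* was called higher and *Jun* was not called. *Junb*, whose product often restrains JUN, stood at 2517, 2494 and 2826 in untreated and 12433, 11631 and 13822 in LPS-treated WT libraries. In the KO libraries it stood at 2283, 2506 and 2607 and 14539.9, 12299 and 13906. The groups lay far apart, with log2 fold changes of 2.27 (SE 0.08, adjusted p = 8.31e-09) and 2.46 (SE 0.08, adjusted p = 2.96e-08), and *Junb* was the second member by level per kilobase of exon in all 4 groups. *Jun*, the central AP-1 subunit, had means of 2420.4 ± 153 and 3957 ± 758 in WT and 2468 ± 187 and 3204 ± 707 in KO BMDMs. Its log2 fold change was 0.69 (SE 0.12, adjusted p = 0.000489) in WT and 0.35 (SE 0.15, adjusted p = 0.0629) in KO BMDMs. With upper quartile scaling it was 0.99 and 0.64, and with equal read totals -0.03 and -0.33, so no direction is given. *Jund* was listed at 0 to 2.81 normalized counts. It is a single-exon gene of which 52.6% of the bases are shared with the antisense gene *Gm11175*, to which no read was assigned either. The strand setting of the counting is not given in the sources used here, and without it reads of a gene and of its antisense partner cannot be told apart.

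The other 5 bZIP factors were all called higher in both genotypes. *Jdp2*, a repressor that binds AP-1 sites, rose from 111, 128 and 91.6 to 936, 932 and 1035 in WT libraries. Among KO libraries it rose from 124, 108 and 109 to 1473, 1809.6 and 1665. The log2 fold changes were 3.13 (SE 0.12, adjusted p = 2.23e-08) and 3.85 (SE 0.10, adjusted p = 7.91e-09), and all 3 LPS-treated KO libraries were above all 3 of WT. *Batf*, which pairs with JUN proteins in lymphoid and myeloid cells, rose from 29.8, 46.9 and 37.4 to 891, 1152 and 1253 in WT libraries. Within KO BMDMs it rose from 52.2, 32.5 and 38 to 1223, 876 and 1198. It changed most of the 5, by 4.83 (SE 0.18, adjusted p = 1.65e-08) and 4.73 (SE 0.19, adjusted p = 8.84e-08). *Atf3*, a stress-induced repressor of inflammatory genes, was already the most abundant member per kilobase before LPS. It stood at 8058, 7429 and 6955 in untreated and 17349, 16910.5 and 17647 in LPS-treated WT libraries. For the KO genotype it stood at 7551, 8833 and 8369 and 18910.0, 17543 and 19035. Its log2 fold changes were 1.21 (SE 0.06, adjusted p = 1.48e-07) and 1.17 (SE 0.08, adjusted p = 1.92e-06), which with equal read totals were 0.49 and 0.48 and no longer reached the fold threshold. The small MAF genes, whose products lack an activation domain, rose too. *Maff* had means of 73 ± 6.80 and 329 ± 42.6 in WT, with log2 fold changes of 2.15 (SE 0.13, adjusted p = 4.87e-07) in WT and 2.23 (SE 0.13, adjusted p = 5.91e-07) in KO BMDMs. *Mafk* had means of 532 ± 36.4 and 3138 ± 129.5 in WT, with 2.56 (SE 0.07, adjusted p = 1.74e-09) and 2.65 (SE 0.09, adjusted p = 4.03e-08).

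Among the EGR zinc finger factors, classical targets of ERK, *Egr2* and *Egr3* were called lower and *Egr1* was not called. *Egr2* fell from 92.7, 89.1 and 82.8 to 18.3, 6.82 and 18.1 in WT libraries. In KO BMDMs it fell from 72.7, 117 and 105 to 23, 22.2 and 19.1. These were log2 fold changes of -2.65 (SE 0.34, adjusted p = 8.42e-05) and -2.12 (SE 0.22, adjusted p = 3.23e-05). *Egr3* had 121, 128 and 239 in untreated and 19.7, 24.6 and 19.5 in LPS-treated WT libraries, and one untreated library was well above the other two. In the KO libraries it went from 121, 57.3 and 107 to 13.3, 23.5 and 28.6. This gave log2 fold changes of -2.82 (SE 0.27, adjusted p = 9.27e-06) and -2.07 (SE 0.36, adjusted p = 0.00073). *Egr1* stood at 454, 386 and 479.5 in untreated and 384, 336 and 384 in LPS-treated WT libraries. Among KO libraries it stood at 333, 307 and 347 and 288, 288 and 256. LPS-treated libraries lay a little below the untreated ones without overlap, with log2 fold changes of -0.25 (SE 0.10, adjusted p = 0.0489) and -0.25 (SE 0.09, adjusted p = 0.0393). These were 0.04 in both genotypes with upper quartile scaling and -0.98 and -0.93 with equal read totals, so no direction is given. *Egr1* was lower in every KO library than in every WT library of the same condition.

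The 3 orphan nuclear receptors of the NR4A family, which are early genes in macrophages as in neurons, went separate ways. *Nr4a1* (NUR77) fell from 167, 162 and 315 to 21.1, 31.4 and 41.7 in WT libraries. Within KO BMDMs it fell from 301, 137 and 279 to 39.9, 24.8 and 40.8. The untreated libraries varied widely within both genotypes, and all lay above the LPS-treated ones, with log2 fold changes of -2.72 (SE 0.31, adjusted p = 3.26e-05) and -2.68 (SE 0.32, adjusted p = 7.34e-05). *Nr4a3* (NOR1) stood at 4.84, 3.96 and 9.56 before and 108, 99.6 and 87.6 after LPS in WT libraries. For the KO genotype it stood at 6.35, 3.42 and 4.30 and 206, 229 and 169. It rose by 3.88 (SE 0.31, adjusted p = 2.89e-06) and 5.17 (SE 0.25, adjusted p = 2.67e-07), from 25 reads in the 3 untreated WT libraries and 19 in those of KO. *Nr4a2* (NURR1) had means of 30.2 ± 5.21 and 44.4 ± 5.40 in WT and 22.7 ± 7.12 and 63 ± 12.7 in KO BMDMs. Its log2 fold change was 0.55 (SE 0.21, adjusted p = 0.0422) in WT and 1.46 (SE 0.27, adjusted p = 0.00119) in KO BMDMs. With equal read totals these were -0.16 and 0.79.

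*Myc* and *Mycl*, which encode related growth-promoting factors that pair with MAX, moved in opposite directions. *Myc* fell from 484, 486 and 399.9 to 46.4, 64.1 and 65.4 in WT libraries. In KO BMDMs it fell from 499, 463 and 421 to 106, 94.1 and 117. The log2 fold changes were -2.95 (SE 0.16, adjusted p = 1.6e-07) and -2.11 (SE 0.12, adjusted p = 5.24e-07). *Mycl* was nearly silent before LPS, with 1.38, 1.32 and 0.797 normalized counts from 5 reads in the 3 WT libraries and 1.41, 0.855 and 0.716 from 4 reads in those of KO. After LPS it stood at 291, 352 and 360.3 in WT and 679.8, 799 and 630.2 in KO libraries. Its log2 fold changes on the scale of the count plus 1 were 7.28 (SE 0.23, adjusted p = 5.93e-09) and 8.47 (SE 0.22, adjusted p = 7.03e-09), the largest of any member, and with a pseudocount of 5 they were 5.78 and 6.88. *Mycl* was tested only because of its level after LPS, so the direction was set by the filter. Per kilobase of exon, *Mycl* went from the lowest or second lowest member to above *Myc*. *Srf*, whose product is the factor known to bind CArG boxes, had means of 680.1 ± 26.3 and 446 ± 20.2 in WT and 717 ± 17.1 and 477 ± 44.2 in KO BMDMs, with log2 fold changes of -0.61 (SE 0.07, adjusted p = 3.97e-05) and -0.59 (SE 0.08, adjusted p = 0.000222).

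Of the 4 remaining early response genes, *Ier3* alone was called. *Ier3* (IEX-1), an NF-kB and p53 target that acts on cell survival, rose from 157, 202 and 301 to 1819.8, 1709.9 and 1964 in WT libraries. In the KO libraries it rose from 98.8, 82.1 and 145 to 1190.2, 1462 and 1356. These were log2 fold changes of 3.10 (SE 0.20, adjusted p = 5.41e-07) and 3.64 (SE 0.19, adjusted p = 3.81e-07), and every KO library lay below every WT library of the same condition. *Ier2*, a nuclear early response protein, had means of 384 ± 30.9 and 646 ± 118 in WT, with log2 fold changes of 0.74 (SE 0.13, adjusted p = 0.000631) in WT and 0.79 (SE 0.10, adjusted p = 0.000109) in KO BMDMs, which were 0.01 and 0.11 with equal read totals. *Ier5*, an activator of the heat shock factor HSF1, had means of 2041 ± 27.7 and 1888 ± 149 in WT, with -0.12 (SE 0.06, adjusted p = 0.134) and -0.06 (SE 0.09, adjusted p = 0.538). With upper quartile scaling these were 0.18 and 0.22, and with equal read totals -0.84 and -0.75, so no direction is given. *Phlda1*, a pleckstrin homology protein induced by growth factors, stood at 269, 252 and 229 and 252, 176 and 142 in WT libraries. Among KO libraries it stood at 108, 195 and 181 and 122, 179 and 135. The groups overlapped, and LPS gave -0.43 (SE 0.19, adjusted p = 0.0628) and -0.12 (SE 0.24, adjusted p = 0.658), for which no direction is given. The antisense gene *Gm28592*, with no reads, covers 33.0% of the exonic bases of *Phlda1*.

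Of the nuclear MAP kinase phosphatases, *Dusp1* and *Dusp2* were called higher, *Dusp4* was called lower and *Dusp5* was not called. *Dusp2* (PAC-1), found mainly in immune cells, stood at 71.3, 75.9 and 62.1 in untreated and 4157, 3429 and 4756 in LPS-treated WT libraries. Within KO BMDMs it stood at 103, 102 and 98.1 and 5258, 2767 and 4034. It rose 57.8-fold in WT and 38.1-fold in KO BMDMs, with log2 fold changes of 5.85 (SE 0.12, adjusted p = 5.35e-10) and 5.25 (SE 0.20, adjusted p = 5.29e-08). *Dusp1* (MKP-1), which acts mainly on p38 and JNK and limits the response to LPS, rose from 901, 862 and 949 to 7563, 7535 and 9173 in WT libraries. For the KO genotype it rose from 856, 889 and 927 to 8299.9, 5417 and 7549. This gave log2 fold changes of 3.16 (SE 0.08, adjusted p = 1.72e-09) and 2.97 (SE 0.14, adjusted p = 2.09e-07). *Dusp4* (MKP-2), which acts on ERK and JNK, fell from 776, 681 and 593 to 61.9, 71 and 40.3 in WT libraries. In KO BMDMs it fell from 525, 723 and 682 to 75, 82.4 and 51.7. The log2 fold changes were -3.57 (SE 0.20, adjusted p = 2.33e-07) and -3.20 (SE 0.19, adjusted p = 8.8e-07), a level 11.9-fold and 9.2-fold lower. *Dusp5*, specific for ERK, had means of 268 ± 10.4 and 184 ± 7.72 in WT and 288 ± 16.1 and 186 ± 58.5 in KO BMDMs, with log2 fold changes of -0.54 (SE 0.09, adjusted p = 0.000505) and -0.68 (SE 0.21, adjusted p = 0.0196).

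The cytoplasmic phosphatases specific for ERK both fell. *Dusp6* (MKP-3), a transcriptional target of ERK that inactivates it, stood at 1558, 1707 and 1436 in untreated and 129, 119 and 152 in LPS-treated WT libraries. In the KO libraries it stood at 1062, 1012 and 921 and 98, 163 and 163. These were log2 fold changes of -3.55 (SE 0.11, adjusted p = 4.09e-09) and -2.85 (SE 0.19, adjusted p = 1.62e-06), a level 11.7-fold and 7.19-fold lower. *Dusp7* (MKP-X) fell from 1827, 1965 and 1682 to 761, 912 and 840.2 in WT libraries. Among KO libraries it fell from 2001, 1709 and 1843 to 813, 769 and 792. This gave log2 fold changes of -1.12 (SE 0.08, adjusted p = 1.77e-06) and -1.22 (SE 0.07, adjusted p = 7.95e-07), and with upper quartile scaling -0.82 and -0.94, which is under the fold threshold.

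Of the phosphatases that prefer JNK and p38, *Dusp16* and *Dusp10* rose and *Dusp8* fell. *Dusp16* (MKP-7) rose from 248, 244 and 255 to 2264, 2029 and 2341 in WT libraries. Within KO BMDMs it rose from 278, 251 and 211 to 2102, 1785 and 1918. The log2 fold changes were 3.14 (SE 0.07, adjusted p = 8.22e-10) and 2.97 (SE 0.11, adjusted p = 5.1e-08). *Dusp10* (MKP-5) rose from 24.2, 20.5 and 23.9 to 119.6, 138 and 107 in WT libraries. For the KO genotype it rose from 26.1, 23.1 and 30.1 to 137, 79.8 and 110.2. Its log2 fold changes were 2.36 (SE 0.18, adjusted p = 1.8e-06) and 1.98 (SE 0.23, adjusted p = 6.12e-05). *Dusp8*, best known from neurons, had a low mean of 32 ± 5.82 in untreated and 12 ± 1.42 in LPS-treated WT BMDMs, with -1.33 (SE 0.26, adjusted p = 0.00118) in WT and -1.58 (SE 0.27, adjusted p = 0.000716) in KO BMDMs.

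The Spred genes, whose products bind the Ras inhibitor neurofibromin, were split as well. *Spred1* stood at 3495, 3460.2 and 3577 in untreated and 22762, 21617 and 22581 in LPS-treated WT libraries. In KO BMDMs it stood at 3728, 3900.3 and 3472 and 22502, 21250.1 and 21522. It rose by 2.67 (SE 0.05, adjusted p = 2.75e-10) and 2.56 (SE 0.07, adjusted p = 8.07e-09) and became the third member by level per kilobase. *Spred2* fell from 514, 464 and 370.4 to 213, 192 and 209 in WT libraries. In the KO libraries it fell from 471, 560.1 and 438 to 126, 199 and 192. These were log2 fold changes of -1.12 (SE 0.12, adjusted p = 2.87e-05) and -1.52 (SE 0.18, adjusted p = 7.09e-05). *Spred3* had means of 204 ± 19.5 and 94.3 ± 11.2 in WT, with -1.11 (SE 0.14, adjusted p = 5.66e-05) and -1.24 (SE 0.13, adjusted p = 3.97e-05). With upper quartile scaling the WT values were -0.82 for *Spred2* and -0.81 for *Spred3*, and that of *Spred3* in KO was -0.96, all under the fold threshold. *Spry2* was the only Sprouty gene with enough reads, and stood at 268, 279 and 244 and 191, 195 and 213 in WT libraries. Among KO libraries it stood at 291, 292 and 256 and 169, 150.4 and 158. This gave log2 fold changes of -0.40 (SE 0.10, adjusted p = 0.00508) and -0.81 (SE 0.10, adjusted p = 0.000116). *Spry1* had 10 and 7 reads in the untreated and LPS-treated WT libraries and 12 and 0 reads in those of KO. *Spry4* had 7 and 3 reads in WT and 4 and 0 in KO BMDMs, and neither was tested.

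Per kilobase of exon, the order of the leading members changed little with genotype but did with LPS. In untreated WT BMDMs the highest levels were those of *Atf3* (3473 ± 257 normalized counts per kilobase), *Junb* (1135 ± 80.6), *Jun* (759 ± 48.1), *Fos* (647 ± 60.7) and *Ier5* (623 ± 8.45). *Fos* and *Ier5* differed by less than the SD of *Fos*. In LPS-treated WT BMDMs the order was *Atf3* (8033 ± 172), *Junb* (5488 ± 482), *Spred1* (3290.1 ± 90.7), *Dusp1* (2444 ± 283) and *Dusp2* (2054 ± 332), and the same 5 genes led in LPS-treated KO BMDMs. Over members at a mean of at least 10, the median coefficient of variation within a group was 8.88% and 9.03% in untreated and 11.8% and 10.9% in LPS-treated WT and KO BMDMs. It was highest for *Fosb*, at 46.8%, in untreated WT, for *Egr2*, at 45.6%, in LPS-treated WT, for *Nr4a1*, at 37.3%, in untreated KO and for *Egr3*, at 35.7%, in LPS-treated KO BMDMs. Replicate 2 of the LPS-treated KO BMDMs was the lowest of its 3 libraries for 22 of 34 members, among them *Dusp1*, *Dusp2*, *Dusp5*, *Dusp10* and *Jun*.

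Whether the response to LPS depended on the genotype was tested by the interaction in all 12 libraries. No member of 36 passed an adjusted p of 0.05 with limma, nor with the replicate number as a block within each genotype. An unadjusted p under 0.05 was found for 9, but the share of all genes at that level was not counted, so nothing is read from it. By edgeR 0 passed and by DESeq2 1 passed, *Jdp2*, with a difference of 0.73 and an adjusted p of 0.0238. Over all genes 0.00787% passed with limma. The smallest unadjusted p were those of *Jdp2*, with a difference in log2 fold change of 0.71 (SE 0.17, adjusted p = 0.498) between KO and WT, *Myc* with 0.84 (SE 0.20, adjusted p = 0.543), *Mycl* with 1.19 (SE 0.30, adjusted p = 0.648), *Nr4a3* with 1.29 (SE 0.41, adjusted p = 0.997) and *Spry2* with -0.41 (SE 0.14, adjusted p = 0.999). The 95% confidence intervals of these differences were 0.35 to 1.08 for *Jdp2*, 0.40 to 1.27 for *Myc*, 0.54 to 1.84 for *Mycl*, 0.40 to 2.18 for *Nr4a3* and -0.70 to -0.12 for *Spry2*. Those of *Mycl* and *Nr4a3* rest on few untreated reads, 5 in WT and 4 in KO for *Mycl* and 25 and 19 for *Nr4a3*. For 21 of 36 members the interval lay within a 2-fold difference in either direction. WT and KO values had the same sign for all 36 members with the deposited scaling, and 17 were larger in KO and 19 in WT BMDMs. Pearson's r of the WT and KO values was 0.978 over the 36 members, a description only, since genes of the same libraries are not replicates.

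In untreated BMDMs, 1 of 34 tested members passed the adjusted p between the genotypes with limma. *Dusp6*, at 99263231 to 99267489 of chromosome 10 of GRCm38, stood at 1558, 1707 and 1436 in WT and 1062, 1012 and 921 in KO libraries, so every KO library was below every WT library. Its log2 fold change was -0.65 (SE 0.08, adjusted p = 0.0188), a level 1.57-fold lower, with a 95% confidence interval of -0.83 to -0.47. Among all genes tested 0.281% passed in the lower and 0.257% in the higher direction. It missed the adjusted p without WT replicate 1 (adjusted p = 0.0874), WT replicate 2 (0.0912) or KO replicate 3 (0.0723), and with a variance without a trend (0.107) or all 12 libraries in one fit (0.124). Without KO replicate 2, the library with the high ribosomal RNA share, it still passed. After LPS, when its level was far lower, *Dusp6* stood at 129, 119 and 152 in WT and 98, 163 and 163 in KO libraries, which overlapped, with 0.06 (SE 0.20, adjusted p = 0.956). The next smallest p were those of *Egr1* with -0.41 (SE 0.10, adjusted p = 0.127), *Dusp2* with 0.53 (SE 0.12, adjusted p = 0.127), *Ier3* with -0.999 (SE 0.26, adjusted p = 0.178) and *Phlda1* with -0.67 (SE 0.20, adjusted p = 0.249). None of these 4 passed, though their groups did not overlap: *Dusp2* was higher in every KO library, and *Egr1*, *Ier3* and *Phlda1* were lower in every one. Over all genes, 8.41% had every KO library higher and 7.98% every KO library lower. With DESeq2 4 members passed as lower, *Dusp6*, *Egr1* (adjusted p = 0.0182), *Ier3* (0.00283) and *Phlda1* (0.0426). The paper, which used DESeq2 on the same libraries, also lists *Ier3* as lower in untreated KO BMDMs. With the replicate number as a block 3 passed in limma, *Dusp6*, *Egr1* (adjusted p = 0.0358) and *Ier3* (0.0142). The numbers do not pair WT with KO libraries, so nothing is read from this block. The summed level of the 12 macrophage markers was 303328 to 369606 in WT and 255723 to 314186 in KO untreated libraries. Whether it has a part in these differences was not tested. For 29 of 34 members the 95% confidence interval lay within a 2-fold difference either way.

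**Figure D3:**
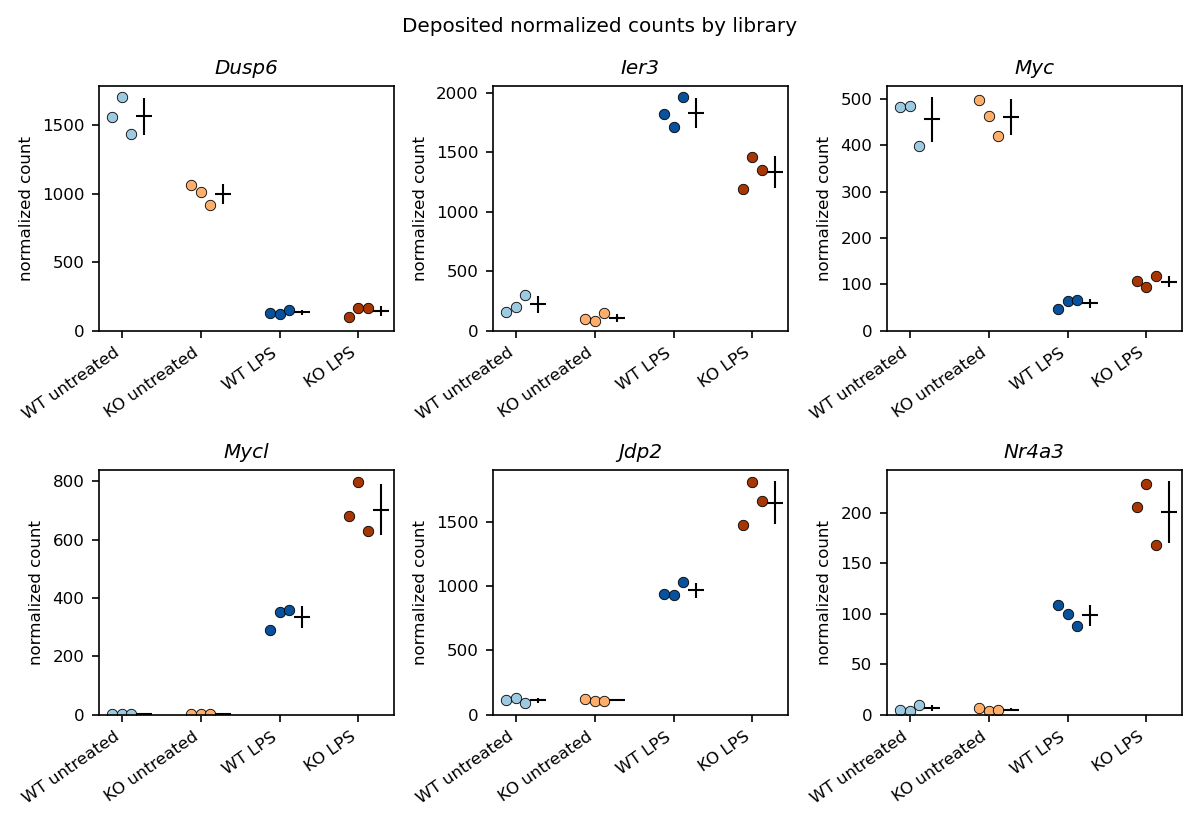
Normalized counts (y axis, linear from 0) of 6 members in each of the 12 libraries (points, by group), with the mean and SD (n = 3) beside them. *Dusp6* and *Ier3* are lower in every untreated KO than in every untreated WT library, and *Myc*, *Mycl*, *Jdp2* and *Nr4a3* are higher in every LPS-treated KO library than in those of WT.

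After LPS, 4 of 35 tested members passed the adjusted p between the genotypes with limma, 3 of them higher in KO BMDMs. Of these, the paper lists *Mycl* and *Nr4a3* as higher in LPS-treated KO BMDMs, by DESeq2 on the same libraries. *Mycl*, at 122995652 to 123002485 of chromosome 4, stood at 291, 352 and 360.3 in WT and 679.8, 799 and 630.2 in KO libraries, 2.1-fold higher, with a log2 fold change of 1.07 (SE 0.12, adjusted p = 0.00552). *Jdp2*, at 85599027 to 85639878 of chromosome 12, stood at 936, 932 and 1035 and 1473, 1809.6 and 1665, 1.7-fold higher, with 0.77 (SE 0.09, adjusted p = 0.00609). *Nr4a3*, at 48045153 to 48086447 of chromosome 4, stood at 108, 99.6 and 87.6 and 206, 229 and 169, 2.02-fold higher, with 1.02 (SE 0.15, adjusted p = 0.0183). For each of the 3 the lowest KO library was above the highest WT library. *Ier3*, at 35821684 to 35822923 of chromosome 17, stood at 1819.8, 1709.9 and 1964 in WT and 1190.2, 1462 and 1356 in KO libraries, 1.37-fold lower, with -0.46 (SE 0.09, adjusted p = 0.0491). Over all genes 0.504% passed in the higher and 0.312% in the lower direction, and 2 members, *Mycl* and *Nr4a3*, were also past the fold threshold, against 0.168% of all genes called higher. These shares are a description, since the members were chosen with earlier results of these data known. *Myc*, which moves against *Mycl* with LPS, was higher in every KO library too, at 106, 94.1 and 117 against 46.4, 64.1 and 65.4, with 0.85 (SE 0.19, adjusted p = 0.0861), which missed the threshold. It passed with DESeq2 (adjusted p = 0.0466), without a filter (0.04997) and with all 12 libraries in one fit (0.0140). In limma it missed with upper quartile scaling (0.0946) and with equal read totals (0.0621) as well.

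The 4 members that passed the adjusted p after LPS were not equally firm. *Mycl* and *Jdp2* missed it, of the alternatives run, only with a variance without a trend, where the adjusted p of both, and of *Nr4a3*, was 0.130. *Nr4a3* also missed it without WT replicate 2 (0.0813), without KO replicate 2 (0.0560) and with all 12 libraries in one fit (0.127). *Ier3* missed it when any library but KO replicate 2 was left out (0.0642 to 0.190), with a mean of at least 50 (0.0571) and with upper quartile scaling (0.0544). *Ier3* also missed it with equal read totals (0.0675), with no trend (0.256) and with all 12 libraries (0.394). With the replicate block the adjusted p of *Ier3* was 0.0564, but the numbers do not pair WT with KO libraries. The 2 members past the fold threshold became 1 without WT replicate 1, 2 or 3 or KO replicate 1, and 0 without KO replicate 2. Every KO library was above every WT library for 7 members, namely *Fos*, *Jdp2*, *Egr2*, *Nr4a2*, *Nr4a3*, *Myc* and *Mycl*, and below for 3, namely *Egr1*, *Ier3* and *Spry2*. Over all genes these shares were 8.35% and 7.73%. The macrophage markers summed to 392921 to 449585 in WT and 324176 to 394141 in KO LPS-treated libraries, and those of neutrophils to 328 to 723 and 424 to 1257. Their part in these differences was not tested. For 30 of 35 members the confidence interval lay within a 2-fold difference either way.

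**Figure D4:**
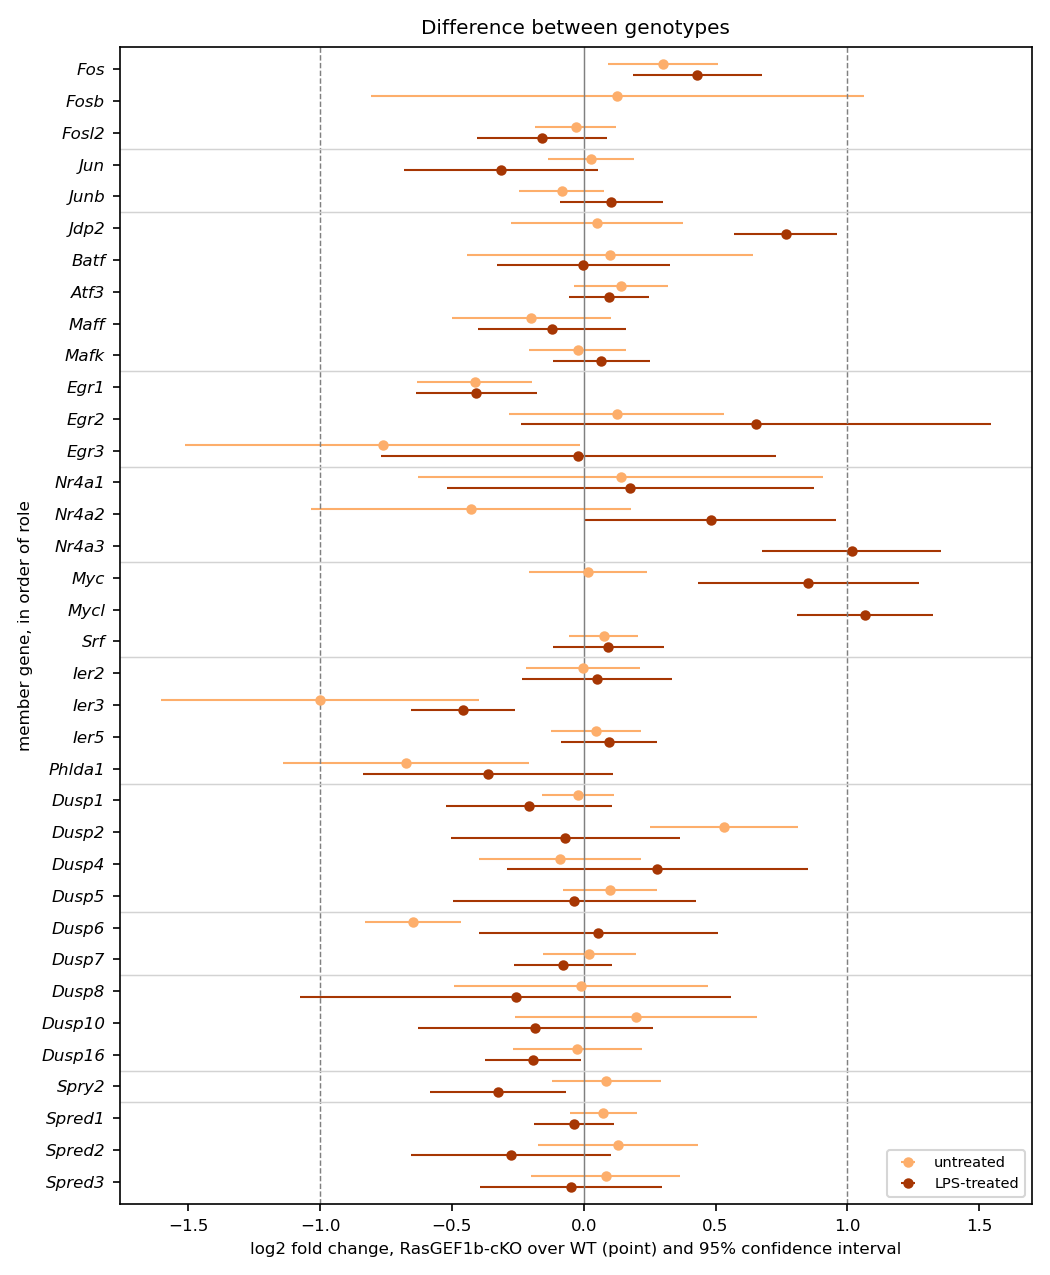
Difference between RasGEF1b-cKO and WT BMDMs for each tested member, untreated (light) and LPS-treated (dark), as log2 fold change (x axis) with 95% confidence interval from limma, n = 3 libraries per group; dashed lines mark a 2-fold change. Of the untreated points *Ier3* lies farthest from 0 with a wide interval, while *Dusp6*, at -0.65, was the 1 that passed the adjusted p; of the LPS-treated points *Mycl* (1.07), *Nr4a3* (1.02) and *Myc* (0.85) lie farthest from 0.

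Most members have few exons, a feature that the rule did not use. In the GENCODE annotation of GRCm38 they had a median of 3.5 exons against 9 in 11393 protein-coding genes at a mean of at least 10, and 31 of 40 (77.5%) had at most 4 exons against 19.5%. *Jun*, *Junb*, *Jund*, *Ier2* and *Ier5* have a single exon. The other 9 had 6 to 8 exons, namely *Srf*, *Dusp8*, *Dusp16* and the NR4A and Spred genes. The median span was 8124 bp against 23872 bp, but it varied by role, from 1941 bp in *Ier2*, *Ier3*, *Ier5* and *Phlda1* to 60906 bp in the Spred genes and 62335 bp in the JNK and p38 phosphatases. In the 3′ untranslated region, where ATTTA motifs mark many short-lived mRNAs, 22 of 40 members (55%) held at least 3 ATTTA against 34.4% of 11219 genes, and 22 (55%) held TATTTAT against 27.5%. The count of ATTTA ran from 0 in *Jdp2*, *Batf*, *Ier2* and *Dusp7* to 12 in *Spred1*. The 14 members called higher in both genotypes had a median of 3 ATTTA and 4 exons, and so had the 12 called lower, while their median spans were 31635.5 bp and 7224.5 bp. The 14 others had medians of 2 ATTTA, 2 exons and 5017.5 bp. Some members are neighbours: *Fos*, *Jdp2* and *Batf* lie in this order on chromosome 12, with 121753 bp between *Fos* and *Jdp2* and 46790 bp between *Jdp2* and *Batf*. LPS left *Fos* lower and both of its neighbours higher.

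Genes of the wider pathway were called in both directions with LPS, except the partners of SRF, which were called lower only. Over all genes the shares called higher and lower were 17.1% and 16.9% in WT and 17.3% and 16.6% in KO BMDMs. Some lists lay above these shares, such as the other early response genes with 7 of 18 lower in WT. The lists are short and were not tested against all genes, so nothing particular to them or to the members is read from the counts. In WT BMDMs, of 33 genes of the ERK cascade 4 were called higher and 7 lower, led by *Map3k8* (TPL2, the kinase that links TLR4 to ERK) at 3.28 (SE 0.06) and *Mknk2* at -3.18 (SE 0.09) on the log2 scale. In KO BMDMs 4 and 6 were called. Of 17 tested genes of the JNK and p38 cascades 5 were higher and 4 lower in WT and 4 and 4 in KO BMDMs, with *Mapkapk2*, a p38 substrate, at 3.06 (SE 0.09) and *Mapk11* at 2.51 (SE 0.15) in WT. Of 13 other dual-specificity phosphatases 2 were higher and 4 lower in WT and 2 and 3 in KO BMDMs, led by *Dusp18* at -3.61 (SE 0.36) and *Dusp14* at 2.24 (SE 0.26). Of 21 other bZIP genes 6 were higher and 3 lower in either genotype, with *Batf2* at 6.17 (SE 0.18) and *Nfil3* at 3.05 (SE 0.10) in WT. Of 18 other early response genes 4 were higher and 7 lower in WT and 6 and 6 in KO BMDMs, with *Csrnp1* at 4.53 (SE 0.09) and *Ier5l* at -4.23 (SE 0.13) in WT. Of 5 partners of SRF none was higher and 3 were lower in either genotype, with the actin-regulated coactivators *Mrtfb* at -2.35 (SE 0.09) and *Mrtfa* at -1.65 (SE 0.12). Between the genotypes, no gene of these 6 lists passed in untreated BMDMs or in the interaction. After LPS 1 passed, *Btg1*, an antiproliferative gene, which was higher in KO BMDMs by 0.45 (SE 0.07, adjusted p = 0.0214).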

How the data were processed

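The 12 libraries were made from poly(A) RNA with the NEBNext Ultra II kit. Per the labels and methods, the authors used bcl2fastq (2.17), Trimmomatic (0.39), STAR (2.7.4a) on GRCm38 and featureCounts of Subread (2.0.1), and then DESeq2 (1.32.0) in R (4.1.2). The deposited signal values are gene counts that the authors divided by 1 DESeq2 size factor per library. Dividing them by the value of 1 read gave whole reads for 100% of values (tolerance 1e-06 reads), so that depth is known. The 40 members and all lists were chosen with earlier results of these data known. Members were given in every library if called for LPS and, within their role, leading in change or level, or if passing or among the 5 smallest p in a genotype comparison or the interaction.

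Here log2 of the normalized count plus 1 was fitted with limma (3.58.1, trended variance) in R (4.3.3), without a block, on the 2 groups compared and, for the interaction, on all 12 libraries. The test took genes at a mean of at least 10, and p-values were adjusted by Benjamini-Hochberg across all these genes. Of the members, 4 (*Fosl1*, *Jund*, *Spry1*, *Spry4*) were never tested, nor were *Nr4a3* and *Mycl* in untreated and *Fosb* in LPS-treated BMDMs between genotypes. Pathway lists covered the ERK cascade, JNK and p38 cascades, other phosphatases, other bZIP and early response genes and partners of SRF, and 8 lists held cell type markers. Alternatives were pseudocounts of 0.5 and 5, no filter, upper quartile scaling, a mean of at least 50, equal read totals (chosen after seeing the data), no variance trend, a replicate block, edgeR (4.0.16), DESeq2 (1.42.0), all 12 libraries, adjusted p alone and each library left out. The fits were tested on simulated data. Structures came from a GENCODE annotation of GRCm38 and promoters from RefSeq (GRCm38.p6). The replicate numbers pair untreated with LPS-treated libraries of a genotype, as seen in deviations from group means, with r = 0.33, 0.19 and 0.24 for equal numbers in WT and 0.29, 0.28 and 0.17 in KO BMDMs. They do not pair WT with KO libraries.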

Additional observations from a re-analysis of the deposited data

How the results depend on the processing

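The LPS counts stayed within 1.5 times of those reported under each alternative, and no called member changed direction. Between untreated genotypes, the 1 member passing as lower became 2 without a filter, 0 without a variance trend, 0 with all 12 libraries, 3 with the replicate block, 4 with DESeq2 (1 of them past the fold threshold) and 0 to 1 with a library left out. After LPS, the 3 passing as higher became 0 without a trend, 5 with DESeq2 and 2 to 4 with a library left out. The 2 past the fold threshold became 1 with a pseudocount of 5 and with all 12 libraries, 0 without a trend and 0 to 2 with a library left out. The 1 passing as lower became 0 with upper quartile scaling, a mean of at least 50, equal read totals, no trend, the replicate block and all 12 libraries, and 0 to 1 with a library left out. The interaction gave 1 with DESeq2. For single members, 598 of 609 values for LPS in WT, 594 of 609 in KO, 74 of 85 and 65 of 85 between untreated and LPS-treated genotypes and 109 of 110 for the interaction kept their side of the threshold. The replicate block changed no other count, and left LPS at 14 and 12 in WT and 15 and 12 in KO BMDMs. Where WT was set against KO, this block joined libraries that the numbers do not pair, so its counts there carry no weight. The cause of these changes was not tested. Few reads were assigned to *Fosl1*, *Jund*, *Spry1* and *Spry4*. The exons of *Fosl1*, *Jund* and *Spry1* share 57.2%, 52.6% and 24.4% of their bases with a gene on the other strand. Whether this overlap lowered their counts was not tested, so these counts are not read as a lack of expression.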
